A study of Mus musculus with 12 samples.

Results

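Meningeal and perivascular fibroblast genes were followed in the cortex and the hippocampus of irradiated and sham-irradiated mice. The group held 34 genes for collagens, other matrix proteins, transporters, secreted factors, retinoid enzymes and transcription factors of the leptomeninges and of fibroblasts around vessels. They were chosen by gene symbol, whatever their level, but with earlier results of these data known. Counts of these genes set beside all genes therefore describe the list and do not test it. All 34 were among the 23183 genes listed in each library. Male C57BL/6 mice were bought at 7 weeks of age and kept for 1 week before treatment. IR mice received a single 10 Gy dose to the whole brain and Con mice a sham treatment (0 Gy). Tissue was collected 3 months later, and each of the 4 groups (cortex Con, cortex IR, hippocampus Con and hippocampus IR) had 3 libraries. Con and IR were separate mice. Whether the libraries numbered alike in Con and IR shared a batch is not given in the sources used here. Nor is it given whether those numbered alike in cortex and hippocampus shared an animal or a batch. The p-values therefore measure the spread between these libraries. Dissected pieces of brain can carry different amounts of the membranes that cover them, and the question asked of these genes was how IR differed from Con in each tissue and how far the libraries of a group differed among themselves.

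The brain is wrapped in the leptomeninges (pia and arachnoid), whose fibroblasts also follow larger vessels into the tissue as perivascular fibroblasts. These cells lay down fibrillar collagens and small leucine-rich proteoglycans, move amino acids, sulfate and organic ions between cerebrospinal fluid and brain through a characteristic set of solute carriers, and secrete growth factors, prostaglandin D2 synthase and retinoic acid. They make up a small share of a dissected cortex or hippocampus, and part of the genes are also used by other cells: choroid plexus epithelium makes *Igf2*, *Igfbp2* and *Ptgds*, and oligodendrocytes make *Ptgds*.

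RefSeq promoter sequences on GRCm38.p6 (the mm10 build named in the submitters' processing notes) were matched by symbol for 25 of the 34 genes. The 250 bases before the start are shown for 4 of them. *Islr* and *Foxc1* are shown because Con and IR separated in opposite directions in the 2 tissues, *Ptgds* because it had the highest FPKM of the group in both tissues, and *Slc13a4* because in the hippocampus it was highest in the libraries richest in choroid plexus genes. Capitals mark CCAAT and GGGCGG, or their reverse complements, and no match overlapped another. Each is written 5′ to 3′ on the strand of the gene.
Islr (chr9:58158555-58158804, minus strand): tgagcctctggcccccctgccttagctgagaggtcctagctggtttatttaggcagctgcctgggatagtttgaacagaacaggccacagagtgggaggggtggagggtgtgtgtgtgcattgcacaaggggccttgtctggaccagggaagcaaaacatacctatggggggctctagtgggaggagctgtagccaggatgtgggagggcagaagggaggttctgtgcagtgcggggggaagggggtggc
Foxc1 (chr13:31806396-31806645, plus strand): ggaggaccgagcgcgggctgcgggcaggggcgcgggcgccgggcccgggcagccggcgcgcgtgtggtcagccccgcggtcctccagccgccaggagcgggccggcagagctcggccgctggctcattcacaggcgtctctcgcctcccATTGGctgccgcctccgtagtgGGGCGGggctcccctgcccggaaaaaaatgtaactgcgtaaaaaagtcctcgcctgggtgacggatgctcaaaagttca
Ptgds (chr2:25469750-25469999, minus strand): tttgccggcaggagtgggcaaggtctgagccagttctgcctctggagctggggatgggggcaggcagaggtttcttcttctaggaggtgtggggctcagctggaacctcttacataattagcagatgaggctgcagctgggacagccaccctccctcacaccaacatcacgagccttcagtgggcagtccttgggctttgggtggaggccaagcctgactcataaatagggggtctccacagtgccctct
Slc13a4 (chr6:35308127-35308376, minus strand): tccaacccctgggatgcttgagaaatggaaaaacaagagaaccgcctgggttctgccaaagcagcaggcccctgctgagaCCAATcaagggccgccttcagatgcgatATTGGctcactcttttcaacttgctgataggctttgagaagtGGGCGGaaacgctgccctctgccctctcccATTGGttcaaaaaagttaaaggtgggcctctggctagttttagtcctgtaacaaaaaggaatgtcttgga
CCAAT was found in 6 of the 25 promoters (24%) and in 33.85% of all 32851 promoters of this length, and GGGCGG in 15 of the 25 (60.0%) and in 32.74% of all. The *Islr* and *Ptgds* windows held neither string, the *Foxc1* window held 1 of each, and the *Slc13a4* window held CCAAT 3 times and GGGCGG once. These matches describe the letters of the windows and were not tested.

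The values were FPKM (fragments counted relative to transcript length and to the mapped fragments of the library), and they can therefore be compared between genes. They summed to between 359773 and 393447 per library. Depth in reads is unknown. A rough relative depth was read from the steps between the lowest FPKM values, as the most common ratio to Con 1 of the same tissue. In the cortex it was 1.0 in all Con libraries and 1.01, 1.05 and 1.03 in IR 1 to 3. In the hippocampus it was 1.0, 1.02 and 1.07 in Con and 1.13, 1.09 and 1.08 in IR. The IR values were above the Con values in both tissues, where Con 1 is 1.0 by definition. The closest of them (1.0 and 1.01 in the cortex, 1.07 and 1.08 in the hippocampus) were neighbouring steps of the estimate, which cannot resolve such small differences. The hippocampus estimates of IR 1, Con 3 and IR 3 rested on 67 of 1673, 87 of 1692 and 111 of 1786 genes compared. The part of depth in the results was not tested. *Tbr1*, a gene of cortical neurons, was listed at 39.5 to 46.2 FPKM in cortex and at 10.7 to 14.1 FPKM in hippocampus. *Ttr*, the leading gene of choroid plexus epithelium, set 3 libraries apart: it stood at 1005 FPKM in hippocampus Con 2, at 1582 FPKM in hippocampus IR 1 and at 426 FPKM in cortex IR 2, whereas the other hippocampus libraries held 15.9 to 55.6 FPKM and the other cortex libraries 2.75 to 27.4 FPKM. The counts of genes with an unadjusted p under 0.05 in each tissue are given with and without these libraries.

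The defining fibroblast genes were present at low levels in both tissues. In cortex Con, *Ptgds* led the group with 899 ± 73.7 FPKM, followed by *Igfbp2* with 25.8 ± 0.693 and *Mgp* with 23.4 ± 1.07 FPKM, and the fibrillar collagen genes *Col1a1* and *Col3a1* stood at 2.22 ± 0.209 and 0.508 ± 0.0978 FPKM (SD, n = 3). In hippocampus Con, *Ptgds* again led with 197 ± 73.6 FPKM, followed by *Igfbp2* with 28.3 ± 17.0, *Igf2* with 17.9 ± 9.36 and *Col6a1* with 16.9 ± 6.90 FPKM. *Dcn* stood at 12.1 ± 4.96 FPKM and *Mgp* at 11.6 ± 4.31 FPKM (SD, n = 3). None of the 34 genes was listed at 0 in any library. In these bulk libraries fewer fibroblasts and less RNA per fibroblast cannot be told apart.

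Genes that reached 0.5 FPKM in 3 or more of a tissue's 6 libraries were tested with limma on log2(FPKM + 1), and p-values were adjusted over all genes tested (Benjamini-Hochberg). A fold change is therefore given on the log2(FPKM + 1) scale, which understates the change of low genes. All 34 genes were tested in the cortex, among 14065, and 33 in the hippocampus, among 14043. *Slc47a1* did not pass the filter in the hippocampus. For groups of 3 the smallest two-sided p of an exact permutation test is 0.1, so the p-values are those of the model across all genes.

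In the cortex most fibroblast genes were lower in IR than in Con, by small amounts. The log2 fold change was below 0 for 30 of the 34 genes and above 0 for 4, whereas 49.5% of all genes tested were lower and 50.5% higher. The median over the 34 genes was -0.21, against 0.0016 over all genes tested. Unadjusted p was under 0.05 for 8 genes, all lower (*Mgp*, *Slc13a3*, *Islr*, *Bmp7*, *Slc22a6*, *Slc47a1*, *Slc6a20a* and *Ptgds*), a share to be read against 5.94% of all genes lower and 8.16% higher at that level. IR and Con did not overlap for 6 genes, all lower (*Mgp*, *Islr*, *Slc13a3*, *Slc47a1*, *Bmp7* and *Foxc1*), against 9.09% of all genes lower and 11.2% higher. None of the 34 reached a fold of 1.5 together with an unadjusted p under 0.05 (0.483% of all genes did), and none had an adjusted p under 0.05 (0.725% of all genes did). The lowest adjusted p of the group was 0.0518 (limma), for *Mgp*, which came to 0.0492 with quantile normalization.

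The cortex result rested in part on a single library. IR 1 was the lowest of the 6 libraries for 27 of the 34 genes (79.4%), which was the case for 17.9% of all genes. Without IR 1 the median was -0.066, 24 genes were below 0 and 4 had an unadjusted p under 0.05 (*Mgp*, *Islr*, *Slc13a3* and *Bmp7*, all of them among the 8), beside 3.68% of all genes lower and 5.05% higher at that level. Without Con 3 the median was -0.13. Without IR 2, the cortex library with the high *Ttr*, 15 genes had an unadjusted p under 0.05, all lower, beside 5.3% of all genes lower and 6.37% higher. The 8 that then joined were *Col1a2*, *Fmod*, *Efemp1*, *Slc13a4*, *Gjb2*, *Igf2*, *Igfbp2* and *Bmp6*. *Mgp*, *Islr*, *Slc13a3* and *Bmp7* kept an unadjusted p under 0.05 whichever of the 6 libraries was left out. In a single fit of all 12 libraries, whose estimate of the spread comes from both tissues, *Islr* alone of the 8 kept it, with an unadjusted p of 0.00711 from limma, whereas *Mgp* had 0.153, *Slc13a3* 0.108 and *Bmp7* 0.0533. The sign of the log2 fold change was the same in all 6 fits that left out a library for 23 genes and turned in at least 1 of them for 11 (*Col3a1*, *Col6a1*, *Bgn*, *Lum*, *Ogn*, *Pcolce*, *Fbln1*, *Slc6a13*, *Serping1*, *Cyp1b1* and *Foxd1*).

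In the hippocampus most fibroblast genes were higher in IR than in Con, with a wider spread. The log2 fold change was above 0 for 29 of the 33 genes tested and below 0 for 4 (*Col6a1*, *Col6a2*, *Igfbp2* and *Bmp6*), whereas 47.3% of all genes tested were higher and 52.7% lower. The median over the 33 genes was 0.26, against -0.01 over all genes tested. Unadjusted p was under 0.05 for 6 genes, all higher (*Islr*, *Fbln1*, *Slc6a13*, *Foxc1*, *Ogn* and *Mgp*), beside 7.06% of all genes higher and 6.89% lower. Con and IR did not overlap for 5 genes, all higher (*Ogn*, *Islr*, *Fbln1*, *Slc6a13* and *Foxc1*), beside 10.5% of all genes higher and 9.36% lower. *Ogn* and *Slc6a13* reached a fold of 1.5 with an unadjusted p under 0.05, as did 0.527% of all genes. None had an adjusted p under 0.05 (0.0285% of all genes did), and the lowest adjusted p of the group was 0.23 (limma), for *Islr*.

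The hippocampus counts moved with single libraries as well. IR 2 was the highest library for 19 of the 33 genes (57.6%, against 11.9% of all genes), Con 2 the lowest for 15 (45.5%, against 16.1%) and Con 1 the lowest for 12 (36.4%, against 22.5%). Without Con 3, 17 of the fibroblast genes had an unadjusted p under 0.05, all higher, but 10.8% of all genes were then higher at that level too and 15% lower, and *Islr* and *Slc6a13* had an adjusted p under 0.05 (lowest 0.0195, limma). The 12 that then joined were *Col1a1*, *Dcn*, *Bgn*, *Fmod*, *Efemp1*, *Slc6a20a*, *Slc13a3*, *Gjb2*, *Serping1*, *Ptgds*, *Aldh1a2* and *Osr1*. Without IR 3 the count was 10 (4.58% of all genes higher, 4.96% lower), and without IR 2 it was 3 (4.96% higher, 4.79% lower). The genes that also reached a fold of 1.5 numbered 6 without Con 3 (1.57% of all genes), 4 without IR 1 (0.477%), 1 without Con 2 (0.598%) and 1 without IR 2 (0.726%). Without the choroid plexus-rich libraries Con 2 and IR 1, a comparison added after the data were seen, 27 of the 33 genes were above 0, the median was 0.21, and 5 had an unadjusted p under 0.05 (*Islr*, *Fbln1*, *Slc6a13* and *Fmod* higher, *Bmp6* lower), beside 3.2% of all genes higher and 2.36% lower. In that comparison of 2 libraries against 2, the groups did not overlap for 10 of the fibroblast genes with IR higher and for 2 with IR lower, while 20.2% of all genes were higher and 16.8% lower without overlap. *Islr*, *Fbln1* and *Slc6a13* kept an unadjusted p under 0.05 whichever of the 6 libraries was left out. The sign of the log2 fold change was the same in those 6 fits for 27 genes and turned in at least 1 of them for 6 (*Col6a1*, *Pcolce*, *Slc13a4*, *Igf2*, *Igfbp2* and *Crabp2*).

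**Figure D1:**
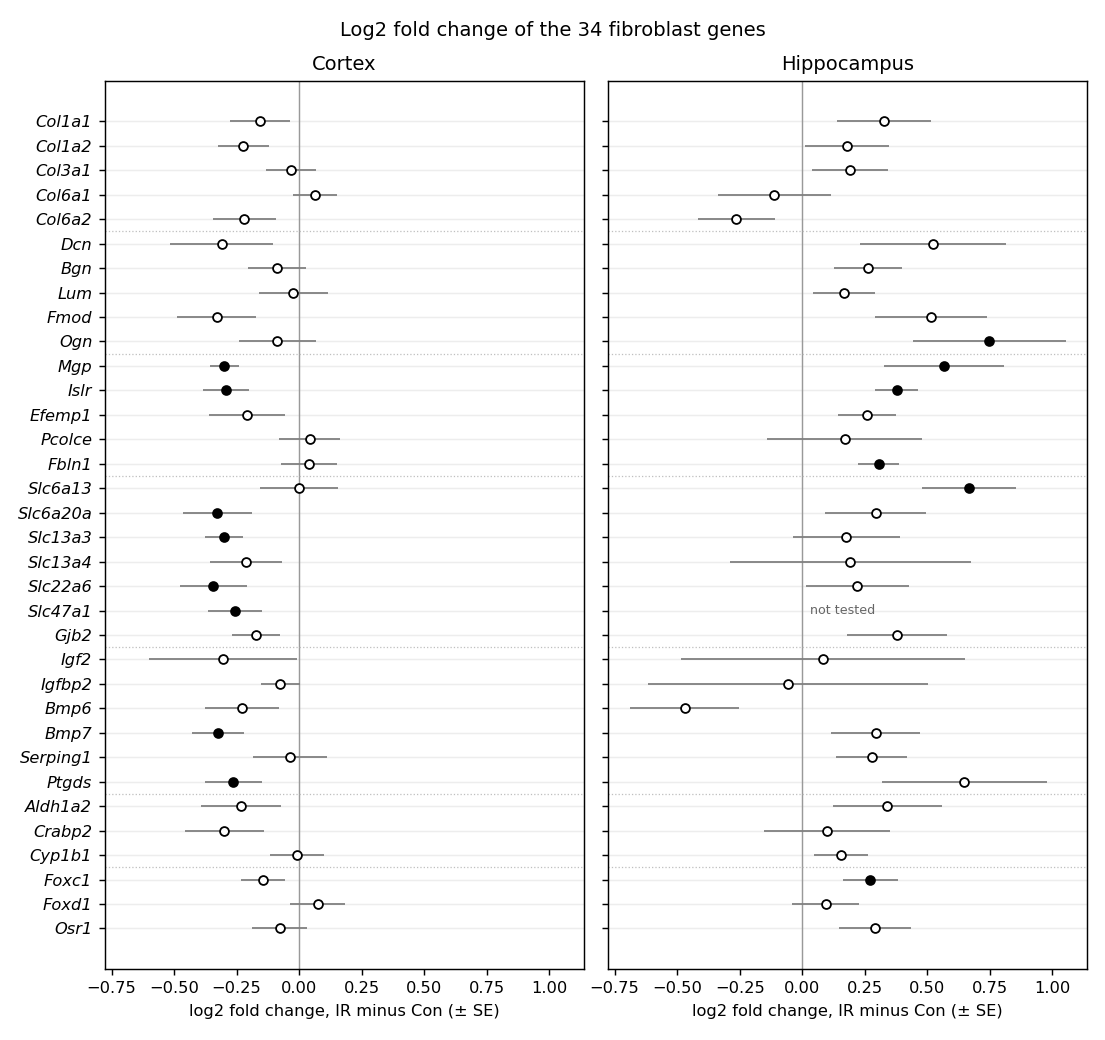
Log2 fold change of IR against Con on the log2(FPKM + 1) scale (x axis) for each of the 34 genes, ordered by role, in the cortex (left) and the hippocampus (right). Bars are standard errors from limma, filled circles have an unadjusted p under 0.05, and dotted lines part the roles. In the cortex 30 of 34 circles lie left of 0, and in the hippocampus 29 of 33 lie right of it.

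Among the collagens, no gene had an unadjusted p under 0.05 in either tissue. *Col1a1* and *Col1a2* encode the chains of type I collagen and *Col3a1* that of type III. *Col1a1* ranged from 1.45 to 2.44 FPKM over the 6 cortex libraries and from 1.23 to 3.39 FPKM over the 6 hippocampus libraries. *Col1a2* ranged from 2.71 to 3.99 FPKM and from 1.62 to 3.34 FPKM, and *Col3a1* from 0.398 to 0.619 FPKM and from 0.351 to 0.970 FPKM. These 3 genes were lower in cortex IR by -0.16, -0.22 and -0.03 on the log2 scale and higher in hippocampus IR by 0.33, 0.18 and 0.19, within overlapping groups. The cortex value of *Col1a1* was -0.037 without IR 1 and -0.25 without IR 3. Without IR 2 the hippocampus value of *Col3a1* was 0.074, and without IR 1 it was 0.33 (unadjusted p = 0.0489, limma). In the cortex, without Con 1 *Col3a1* was above 0, at 0.018. In the hippocampus *Col1a1* and *Col1a2* were 0.14 and 0.012 without Con 2 and 0.46 (unadjusted p = 0.049, limma) and 0.30 without Con 3. *Col6a1* and *Col6a2* encode chains of the microfibrillar type VI collagen. *Col6a1* ranged from 17.2 to 22.2 FPKM in cortex and was listed in hippocampus at 24.8, 13.8 and 12.2 FPKM in Con and 14.4, 14.9 and 15.3 FPKM in IR (Con 1, 2 and 3, then IR 1, 2 and 3, as in all such lists of values here). Con 1 alone was high, at 24.8 FPKM, and it was also the highest library for *Col6a2* (5.39 FPKM, against 2.87 to 3.46 FPKM in the other 5). Their log2 fold changes in the hippocampus were -0.11 and -0.27. Without Con 3 *Col6a1* was -0.30. Without Con 1 they were 0.19 (unadjusted p = 0.0474, limma) and -0.080, so that the direction of *Col6a1* rested on that library.

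The 5 small leucine-rich proteoglycans bind collagen fibrils and set their thickness and spacing. All 5 had a log2 fold change below 0 in cortex IR, which turned for *Bgn*, *Lum* and *Ogn* when single libraries were left out, and all 5 were above 0 in hippocampus IR, with 1 gene (*Ogn*, hippocampus) at an unadjusted p under 0.05. *Dcn* (decorin), a common marker of fibroblasts, was listed in the cortex at 4.90, 8.09 and 9.43 FPKM in Con and 4.64, 5.91 and 6.55 FPKM in IR. Con 1 lay among the IR libraries, so the groups overlapped, with a log2 fold change of -0.31 (SE 0.20, unadjusted p = 0.168, adjusted p = 0.55 from limma). The log2 fold change was -0.55 without Con 1 (unadjusted p = 0.00155, limma) and -0.14 without Con 3. In the hippocampus *Dcn* stood at 11.2, 7.71 and 17.5 FPKM in Con and 15.1, 23.1 and 14.0 FPKM in IR. Con 3 was above IR 1 and IR 3, with a log2 fold change of 0.52 (SE 0.29, unadjusted p = 0.115, adjusted p = 0.444 from limma). Without Con 3 it was 0.80 (unadjusted p = 0.0161, limma) and without Con 2 it was 0.26.

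*Fmod* (fibromodulin) was listed at 7.80, 8.46 and 6.80 FPKM in Con and 4.27, 7.42 and 6.37 FPKM in IR in the cortex. IR 1 was far below the other 5 libraries and the groups overlapped, with a log2 fold change of -0.33 (SE 0.16, unadjusted p = 0.0654, adjusted p = 0.39 from limma). Without IR 1 the log2 fold change was -0.14, and without IR 2 it was -0.47 (unadjusted p = 0.0102, limma). In the hippocampus *Fmod* was much lower, at 1.27, 0.885 and 1.95 FPKM in Con and 1.42, 2.98 and 2.81 FPKM in IR. IR 2 and IR 3 exceeded every Con library and IR 1 did not, with a log2 fold change of 0.51 (SE 0.22, unadjusted p = 0.0515, adjusted p = 0.362 from limma). The log2 fold change ran from 0.36 without Con 2 to 0.74 without IR 1 (unadjusted p = 0.00514, limma). *Ogn* (osteoglycin) stood at 1.00, 3.58 and 3.49 FPKM in Con and 5.37, 5.15 and 3.99 FPKM in IR in the hippocampus. All 3 IR libraries were above all 3 Con libraries, and Con 1 was the lowest by a wide margin. This gave a log2 fold change of 0.75 (SE 0.30, unadjusted p = 0.0411, adjusted p = 0.347 from limma), and without Con 1 the log2 fold change was 0.36. The unadjusted p (limma) was 0.0978 without IR 1, 0.102 without IR 2 and 0.054 without both Con 2 and IR 1. In the cortex the groups of *Ogn* overlapped, between 2.00 and 3.52 FPKM, with a log2 fold change of -0.087. *Bgn* (biglycan) ranged from 4.02 to 6.05 FPKM in cortex and from 3.93 to 6.69 FPKM in hippocampus, and *Lum* (lumican) from 0.518 to 1.22 FPKM and from 1.51 to 2.55 FPKM, all within overlapping groups.

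Among the other matrix genes, *Mgp* and *Islr* had an unadjusted p under 0.05 in both tissues, lower in cortex IR and higher in hippocampus IR. *Mgp* encodes matrix Gla protein, which keeps soft tissue from calcifying and binds bone morphogenetic proteins. In the cortex it was listed at 22.2, 23.6 and 24.3 FPKM in Con and 18.4, 19.4 and 18.6 FPKM in IR. All 3 IR libraries lay below all 3 Con libraries, and the IR libraries differed from each other by less than 1 FPKM. The means were 23.4 ± 1.07 and 18.8 ± 0.497 FPKM (SD, n = 3), and limma gave a log2 fold change of -0.30 (SE 0.057, unadjusted p = 0.00039, adjusted p = 0.0518 from limma). In the hippocampus *Mgp* stood at 7.52, 11.3 and 16.1 FPKM in Con and 20.0, 17.2 and 14.2 FPKM in IR. Con 3 was above IR 3, so the groups overlapped, with a log2 fold change of 0.57 (SE 0.24, unadjusted p = 0.0471, adjusted p = 0.354 from limma). The unadjusted p was 0.0905 to 0.13 without Con 1, Con 2, IR 1 or IR 2 (limma), and the log2 fold change without Con 1 was 0.31. Without both Con 2 and IR 1 the unadjusted p was 0.196.

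*Islr*, a surface protein with an immunoglobulin domain and leucine-rich repeats that marks mesenchymal stromal cells, separated the groups in both tissues and its promoter is the first printed above. In the cortex the values were 7.44, 6.41 and 7.30 FPKM in Con and 4.89, 5.69 and 6.21 FPKM in IR. All IR libraries lay below all Con libraries, with means of 7.05 ± 0.557 and 5.60 ± 0.664 FPKM (SD, n = 3) and a log2 fold change of -0.29 (SE 0.092, unadjusted p = 0.0105, adjusted p = 0.21 from limma). In the hippocampus the values were 4.33, 4.83 and 5.26 FPKM in Con and 6.64, 6.85 and 6.13 FPKM in IR. Here all IR libraries lay above all Con libraries, with means of 4.81 ± 0.464 and 6.54 ± 0.368 FPKM (SD, n = 3) and a log2 fold change of 0.38 (SE 0.086, unadjusted p = 0.00227, adjusted p = 0.23 from limma).

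*Fbln1* (fibulin-1), a glycoprotein of elastic fibres and basement membranes, was listed at 3.13, 3.59 and 3.34 FPKM in Con and 4.64, 4.22 and 4.27 FPKM in IR in the hippocampus. IR was above Con without overlap, with means of 3.35 ± 0.227 and 4.38 ± 0.225 FPKM (SD, n = 3) and a log2 fold change of 0.30 (SE 0.081, unadjusted p = 0.00553, adjusted p = 0.254 from limma). In the cortex *Fbln1* overlapped between the groups, from 1.44 to 2.08 FPKM, with a log2 fold change of 0.039. *Efemp1* (fibulin-3) was listed at 4.79, 3.99 and 5.37 FPKM in Con and 2.88, 4.91 and 4.20 FPKM in IR in the cortex and at 3.65, 4.07 and 4.81 FPKM in Con and 4.88, 6.02 and 4.67 FPKM in IR in the hippocampus. IR 1 was the lowest of the cortex libraries and IR 2 the highest of the hippocampus libraries, and the groups overlapped in both tissues. *Pcolce*, which speeds the trimming of procollagen, ranged from 3.42 to 5.33 FPKM in cortex and from 2.06 to 6.47 FPKM in hippocampus, with log2 fold changes of 0.042 and 0.17, which ran from -0.10 without IR 2 to 0.16 without IR 1 in the cortex and from -0.12 without IR 1 to 0.40 without IR 3 in the hippocampus.

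**Figure D2:**
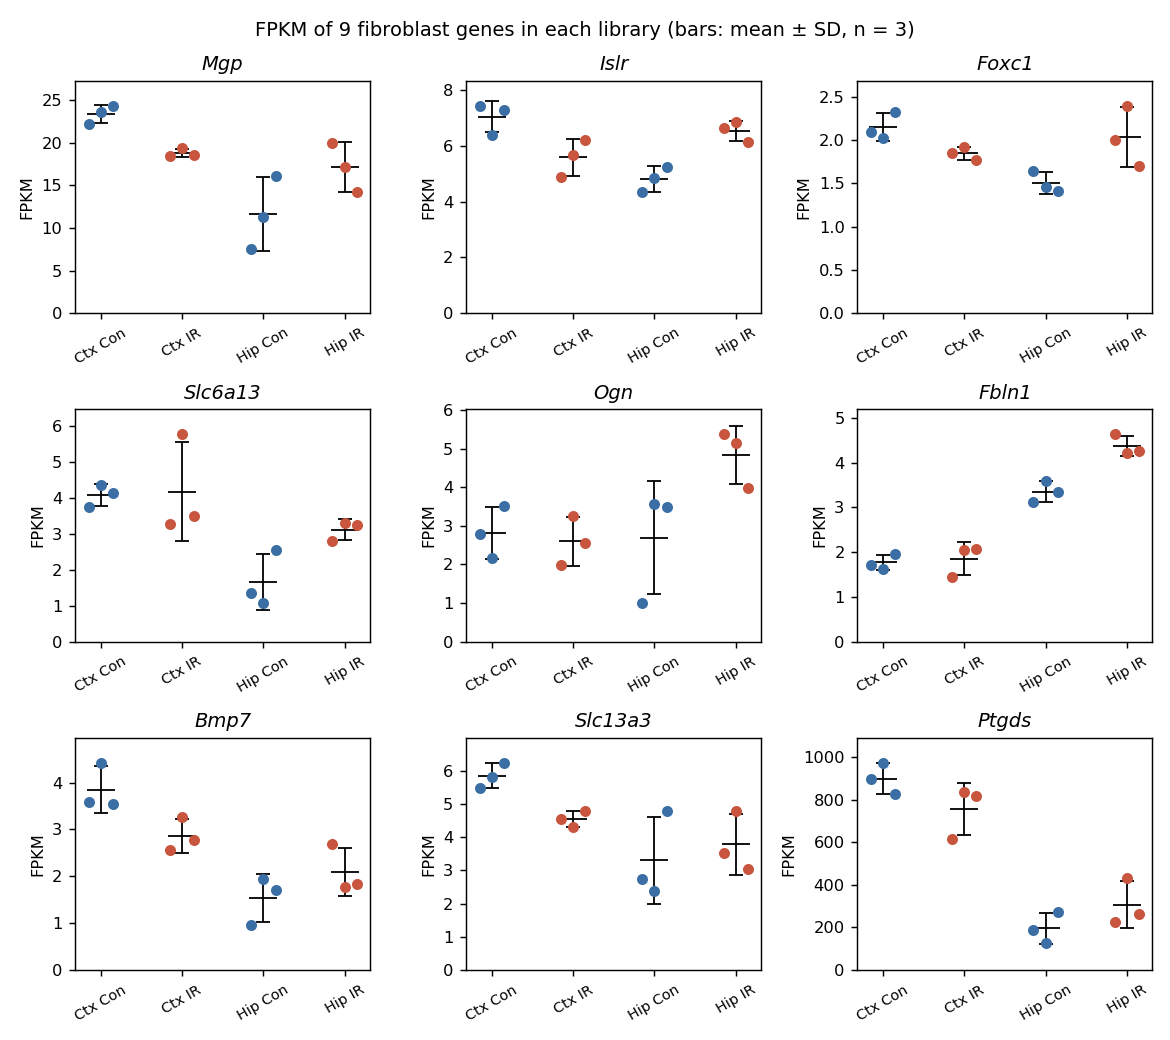
FPKM (y axis, from 0) of 9 of the genes in each library of cortex (Ctx) and hippocampus (Hip), Con in blue and IR in red, with the mean and SD of 3 libraries in black. For *Islr* and *Foxc1* the IR points lie below Con in the cortex and above Con in the hippocampus, and *Ptgds* in the cortex stands between 614 and 973 FPKM, above its 128 to 433 FPKM in the hippocampus.

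The 7 transporter and gap junction genes all had a log2 fold change below 0 in cortex IR (*Slc6a13* only just, and not by its ratio of means), 4 of them with an unadjusted p under 0.05, and the 6 tested in the hippocampus were all higher in IR, 1 of them at that level. *Slc6a13* encodes GAT2, a carrier of GABA and taurine. In the hippocampus it was listed at 1.36, 1.07 and 2.55 FPKM in Con and 2.79, 3.30 and 3.25 FPKM in IR. All IR libraries lay above all Con libraries, Con 3 coming close, with means of 1.66 ± 0.784 and 3.12 ± 0.281 FPKM (SD, n = 3) and a log2 fold change of 0.67 (SE 0.19, unadjusted p = 0.00737, adjusted p = 0.259 from limma). In the cortex the values were 3.74, 4.35 and 4.12 FPKM in Con and 3.27, 5.76 and 3.48 FPKM in IR. IR 2 was above and IR 1 and IR 3 below every Con library, and the log2 fold change was -0.00070, while the ratio of group means was 1.03, so the direction of *Slc6a13* there depended on the scale.

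*Slc13a3*, a carrier of citrate and other dicarboxylates, was listed at 5.48, 5.81 and 6.23 FPKM in Con and 4.55, 4.31 and 4.78 FPKM in IR in the cortex. IR lay below Con without overlap, with means of 5.84 ± 0.376 and 4.55 ± 0.235 FPKM (SD, n = 3) and a log2 fold change of -0.30 (SE 0.077, unadjusted p = 0.00305, adjusted p = 0.131 from limma). The hippocampus libraries ranged from 2.36 to 4.80 FPKM with overlapping groups and a log2 fold change of 0.18, which was 0.018 without Con 2 and 0.41 without Con 3 (unadjusted p = 0.0344, limma). *Slc6a20a*, a carrier of proline and glycine, stood at 5.75, 5.04 and 6.15 FPKM in Con and 3.41, 5.64 and 4.05 FPKM in IR in the cortex. IR 1 and IR 3 were below all Con libraries and IR 2 was not, with a log2 fold change of -0.33 (SE 0.14, unadjusted p = 0.0415, adjusted p = 0.331 from limma). The unadjusted p was 0.0856 to 0.168 without Con 1, Con 3, IR 1 or IR 3 (limma), and the log2 fold change was -0.20 without IR 1 and -0.49 without IR 2. *Slc6a20a* ranged from 1.78 to 4.11 FPKM in the hippocampus, where both ends were Con libraries.

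*Slc22a6* (OAT1), a carrier of organic anions, was listed at 1.97, 2.58 and 2.09 FPKM in Con and 1.13, 1.98 and 1.53 FPKM in IR in the cortex. IR 1 and IR 3 lay below every Con library and IR 2 among them, with a log2 fold change of -0.34 (SE 0.13, unadjusted p = 0.0276, adjusted p = 0.29 from limma). The unadjusted p was 0.0541 to 0.116 without Con 2, IR 1 or IR 3 (limma), and the log2 fold change without IR 1 was -0.22. *Slc47a1* (MATE1), which exports organic cations, stood at 0.730, 0.728 and 0.977 FPKM in Con and 0.564, 0.369 and 0.619 FPKM in IR in the cortex, the lowest group of values among the transporters. IR lay below Con without overlap, with a log2 fold change of -0.26 (SE 0.11, unadjusted p = 0.0407, adjusted p = 0.328 from limma). Without Con 3, IR 1 or IR 2 the unadjusted p was 0.0556 to 0.148 (limma). Its ratio of group means was 0.638, the largest fold of the group in the cortex on that scale and the only one there to reach 1.5 in either direction, so it met both thresholds with the fold taken from the group means alone. With a pseudocount of 0.1 its log2 fold change was -0.57, just short of a fold of 1.5. In the hippocampus *Slc22a6* ranged from 0.204 to 1.24 FPKM and *Slc47a1* from 0.0627 to 0.650 FPKM.

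*Gjb2* (connexin 26), which joins leptomeningeal cells by gap junctions, was listed at 4.56, 4.50 and 5.15 FPKM in Con and 3.74, 4.73 and 3.84 FPKM in IR in the cortex and at 2.58, 1.53 and 3.37 FPKM in Con and 3.05, 4.30 and 3.07 FPKM in IR in the hippocampus. The groups overlapped in both tissues, with IR lower in the cortex by -0.17 and higher in the hippocampus by 0.38 on the log2 scale. The cortex value was -0.26 without IR 2 (unadjusted p = 0.0227, limma) and -0.12 without Con 3, and the hippocampus value was 0.17 without Con 2 and 0.56 without Con 3 (unadjusted p = 0.0186, limma). *Slc13a4*, a sulfate carrier, followed another pattern in the hippocampus, at 1.22, 4.69 and 2.12 FPKM in Con and 6.41, 1.96 and 1.66 FPKM in IR. Con 2 and IR 1, the choroid plexus-rich libraries, were its highest, and the groups overlapped (log2 fold change 0.19, SE 0.48). Without IR 1 the log2 fold change was -0.28, without Con 2 it was 0.56, and without both it was 0.095. In the cortex *Slc13a4* ranged from 2.53 FPKM in IR 1 to 4.57 FPKM in IR 2, and its log2 fold change was -0.21 with IR 2 and -0.37 without it (unadjusted p = 0.0151, limma), but -0.041 without IR 1.

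All 6 secreted factors had a log2 fold change below 0 in cortex IR (that of *Serping1* turned without Con 3 or IR 1), *Bmp7* and *Ptgds* with an unadjusted p under 0.05, and in the hippocampus 4 were higher and 2 lower, none at that level. *Bmp7* encodes a bone morphogenetic protein that meningeal cells release. In the cortex it was listed at 3.58, 4.42 and 3.53 FPKM in Con and 2.56, 3.25 and 2.77 FPKM in IR. IR lay below Con without overlap, with means of 3.84 ± 0.50 and 2.86 ± 0.356 FPKM (SD, n = 3) and a log2 fold change of -0.33 (SE 0.10, unadjusted p = 0.0111, adjusted p = 0.212 from limma). In the hippocampus *Bmp7* stood at 0.965, 1.94 and 1.71 FPKM in Con and 2.68, 1.76 and 1.83 FPKM in IR. IR 1 was the highest library and Con 1 the lowest, and the groups overlapped (log2 fold change 0.29, 0.12 without Con 1 and 0.41 without Con 2). *Bmp6*, a related factor, ranged from 1.44 to 2.88 FPKM in cortex (log2 fold change -0.23, which was -0.38 without IR 2 and -0.061 without IR 1) and from 1.46 FPKM in IR 3 to 4.74 FPKM in Con 2 in the hippocampus, where its log2 fold change of -0.47 had the largest size below 0. Without Con 2 that value was -0.27, without IR 1 it was -0.65 (unadjusted p = 0.0177, limma), and without both it was -0.45.

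*Ptgds*, which makes prostaglandin D2 and carries lipophilic molecules in cerebrospinal fluid, stood at 899, 973 and 826 FPKM in Con and 614, 835 and 815 FPKM in IR in the cortex. IR 1 was lowest, IR 2 and IR 3 lay close to Con 3, and the groups overlapped, with a log2 fold change of -0.26 (SE 0.11, unadjusted p = 0.0475, adjusted p = 0.346 from limma). Without IR 1 the log2 fold change was -0.12, and without Con 1, Con 2 or IR 1 the unadjusted p was 0.0891 to 0.225 (limma). In the hippocampus *Ptgds* was listed at 188, 128 and 274 FPKM in Con and 225, 433 and 262 FPKM in IR. IR 2 was highest and Con 2 lowest, Con 3 exceeded IR 1 and IR 3, and a log2 fold change of 0.65 (SE 0.33, unadjusted p = 0.0914, adjusted p = 0.416 from limma) resulted. The log2 fold change was 0.37 without IR 2 or Con 2, 0.84 without IR 1 (unadjusted p = 0.0441, limma) and 0.92 without Con 3 (unadjusted p = 0.0485, limma).

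*Igf2*, a growth factor, and *Igfbp2*, which binds it, had some of the widest spreads in the hippocampus (ranges of 1.83 and 1.59 on the log2 scale). In the cortex the range of *Igf2* was wide too, at 1.10, and that of *Igfbp2* narrow, at 0.29. *Igf2* was listed at 13.3, 16.6 and 23.3 FPKM in Con and 10.3, 19.9 and 12.8 FPKM in IR in the cortex and at 9.06, 27.7 and 16.8 FPKM in Con and 34.7, 12.4 and 11.7 FPKM in IR in the hippocampus. In the cortex the log2 fold change was -0.30, without IR 2 it was -0.55 (unadjusted p = 0.0445, limma), and without Con 3 it was -0.099. The hippocampus values followed the choroid plexus-rich libraries Con 2 and IR 1, and the log2 fold change there was 0.08 (SE 0.57). It was -0.40 without IR 1, 0.45 without Con 2 and -0.034 without both. *Igfbp2* stood at 18.6, 48.0 and 18.3 FPKM in Con and 46.4, 20.4 and 15.3 FPKM in IR in the hippocampus. Con 2 and IR 1 again stood apart, at 48.0 and 46.4 FPKM, with the other 4 between 15.3 and 20.4 FPKM, and the log2 fold change was -0.058 (SE 0.56). It was -0.51 without IR 1, 0.39 without Con 2 and -0.062 without both. In the cortex *Igfbp2* ranged from 22.6 to 27.9 FPKM, with a log2 fold change of -0.075, of -0.17 without IR 2 (unadjusted p = 0.0299, limma) and of -0.020 without IR 3. *Serping1*, the C1 inhibitor of the complement cascade, ranged from 1.80 to 3.21 FPKM in cortex and from 2.44 to 4.32 FPKM in hippocampus, with overlapping groups.

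The retinoid and oxidative enzymes *Aldh1a2*, *Crabp2* and *Cyp1b1* all had a log2 fold change below 0 in cortex IR and above 0 in hippocampus IR, none with an unadjusted p under 0.05, and leaving out single libraries turned the sign of *Cyp1b1* in the cortex and of *Crabp2* in the hippocampus. *Aldh1a2*, which makes retinoic acid, ranged from 2.00 FPKM in IR 1 to 3.82 FPKM in the cortex, where the other 5 libraries held at least 3.58 FPKM, and from 0.929 FPKM in Con 2 to 2.99 FPKM in IR 2 in the hippocampus. *Crabp2*, which hands retinoic acid to its nuclear receptor, was listed at 2.02, 3.18 and 2.96 FPKM in Con and 1.43, 2.16 and 2.5 FPKM in IR in the cortex. IR 1 was lowest and the groups overlapped, with a log2 fold change of -0.30 (SE 0.16, unadjusted p = 0.0916, adjusted p = 0.442 from limma). It was -0.15 without IR 1 and -0.44 without Con 1 (unadjusted p = 0.0152, limma). *Crabp2* ranged from 0.427 to 1.73 FPKM in the hippocampus. *Cyp1b1*, a cytochrome P450 that oxidises retinol and steroids, ranged from 0.544 to 0.834 FPKM in cortex and from 0.585 to 0.951 FPKM in hippocampus.

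Among the transcription factors, *Foxc1*, which the developing meninges require, separated the groups in both tissues. In the cortex it was listed at 2.09, 2.03 and 2.33 FPKM in Con and 1.85, 1.92 and 1.77 FPKM in IR. IR lay below Con without overlap, with a log2 fold change of -0.14 (SE 0.087, unadjusted p = 0.128, adjusted p = 0.5 from limma). In the hippocampus the values were 1.65, 1.45 and 1.41 FPKM in Con and 2.00, 2.40 and 1.70 FPKM in IR. IR lay above Con without overlap, IR 3 being only just above Con 1, with a log2 fold change of 0.27 (SE 0.11, unadjusted p = 0.0387, adjusted p = 0.344 from limma). Without Con 2, Con 3, IR 1 or IR 2 the unadjusted p was 0.0739 to 0.15 (limma), and without both Con 2 and IR 1 it was 0.135. *Foxd1* ranged from 0.588 to 0.983 FPKM in cortex and from 0.608 to 1.07 FPKM in hippocampus, and *Osr1* from 0.972 to 1.38 FPKM and from 1.24 to 2.51 FPKM, with overlapping groups.

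The difference between the tissues was fitted as an interaction over all 12 libraries and 14577 genes. The 2 comparisons share no libraries, but cortex and hippocampus libraries may come from the same mice, and the fit treated all 12 as independent. For 26 genes the log2 fold change was below 0 in the cortex and above 0 in the hippocampus. Of all genes tested, 49.5% were below 0 in the cortex and 47.3% above 0 in the hippocampus, and the share with both was not counted. The change in the hippocampus exceeded that in the cortex for 31 of the 34 genes, beside 46.3% of all genes, and the median difference was 0.40, beside -0.014 over all genes. The interaction had an unadjusted p under 0.05 for 9 genes, all higher in the hippocampus (4.71% of all genes were, and 5.58% were lower). None had an adjusted p under 0.05, as had 0.0823% of all genes. *Islr* led with a difference of 0.67 on the log2 scale (SE 0.13, unadjusted p = 0.000173, adjusted p = 0.105 from limma), and *Foxc1* had 0.42 on the log2 scale (SE 0.13, unadjusted p = 0.00776, adjusted p = 0.342 from limma). *Bmp7* had 0.62 on the log2 scale (SE 0.22, unadjusted p = 0.0136, adjusted p = 0.376 from limma), *Mgp* 0.87 on the log2 scale (SE 0.28, unadjusted p = 0.00912, adjusted p = 0.346 from limma) and *Fmod* 0.84 on the log2 scale (SE 0.31, unadjusted p = 0.0184, adjusted p = 0.404 from limma). For these 5 genes the unadjusted p stayed under 0.05 whichever of the 12 libraries was left out. The other 4 (*Gjb2*, *Slc6a13*, *Slc6a20a* and *Efemp1*) had an unadjusted p of 0.0298 to 0.0455 (limma), which stayed under 0.05 in 4 to 6 of the 12 fits that left out a library. The count was 5 without cortex IR 1 or cortex Con 3, 6 without hippocampus Con 1, Con 2 or IR 2 (3.35% to 4.21% of all genes higher and 4.05% to 5.03% lower over these 5 fits), 15 without cortex IR 2 (4.11% of all genes higher and 4.56% lower) and 19 without hippocampus Con 3 (7.68% of all genes higher and 12.1% lower), where *Islr*, *Mgp*, *Slc13a3*, *Slc6a13* and *Slc6a20a* had an adjusted p under 0.05 (lowest 0.0175, limma). Without hippocampus Con 2 and IR 1 the count was 8 (3.81% of all genes higher and 3.3% lower), with *Islr*, *Foxc1*, *Bmp7*, *Mgp* and *Fmod* among them.

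In the Con libraries alone, the hippocampus had lower values than the cortex for most of the genes. The median log2 difference was -0.31 over the 34 genes and 0.018 over all genes. An adjusted p under 0.05 (limma) was found for 16 of the 34 genes with the hippocampus lower and for 2 with it higher, beside 20.5% and 23.4% of all genes. *Ptgds* was lower by -2.25 (899 ± 73.7 FPKM in the cortex, 197 ± 73.6 FPKM in the hippocampus, SD, n = 3) and *Fmod* by -1.90 (7.69 ± 0.835 and 1.37 ± 0.538 FPKM, SD, n = 3). *Lum* and *Fbln1* were the genes higher in the hippocampus, by 0.53 and 0.65 on the log2 scale. The cortex and hippocampus files name their value columns differently, so tissue and a possible separate processing run cannot be told apart here.

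The spread between libraries was wider for these genes than the typical spread of all genes, a description that was not tested. The median range over the 6 libraries was 0.54 on the log2 scale in the cortex and 0.91 in the hippocampus for the fibroblast genes, and 0.28 and 0.33 for all genes. The median SD within a group was 0.18 and 0.32 for the fibroblast genes and 0.094 and 0.11 for all genes. Averaged over the genes, the deviation from the mean of the tissue was 0.05, 0.071 and 0.13 in cortex Con 1 to 3 and -0.27, 0.084 and -0.064 in cortex IR 1 to 3. Cortex IR 2 therefore stood among the Con libraries and IR 1 far below them. In the hippocampus it was -0.24, -0.18 and 0.049 in Con 1 to 3 and 0.18, 0.23 and -0.041 in IR 1 to 3. Con 3 stood above IR 3, so the groups overlapped in this average in both tissues. Genes listed at 0 numbered 5722, 5689 and 5660 in cortex Con 1 to 3 and 5832, 5648 and 5635 in cortex IR 1 to 3. In the hippocampus they numbered 5992, 6090 and 5803 in Con and 5650, 5755 and 5818 in IR. The libraries with the lowest averages in each tissue thus had the most genes at 0, and the part of this in the averages was not tested.

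**Figure D3:**
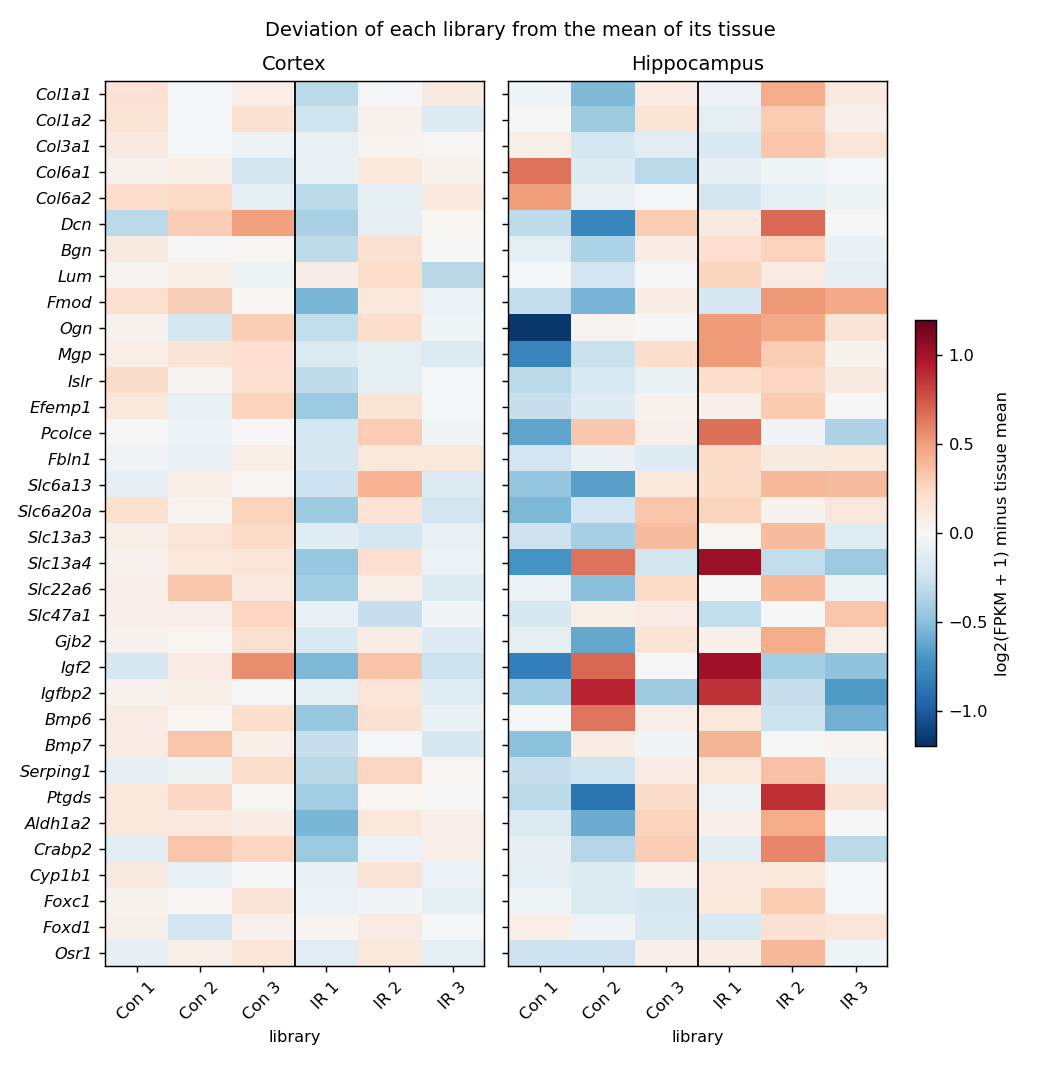
Deviation of each library from the mean of its tissue, in log2(FPKM + 1), for the 34 genes (rows, ordered by role) in the 12 libraries (columns, a black line between Con and IR). Blue is lower and red higher than the mean. Cortex IR 1 is the lowest library for 27 of 34 genes, and *Slc13a4*, *Igf2* and *Igfbp2* are highest in hippocampus Con 2 and IR 1.

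In the hippocampus, Con 2 and IR 1 were the 2 highest libraries for 6 of the fibroblast genes (*Pcolce*, *Slc13a4*, *Igf2*, *Igfbp2*, *Bmp6* and *Bmp7*), beside 5.80% of all genes. Of these, *Pcolce* had a log2 fold change of 0.086 without both libraries and *Bmp7* of 0.28. Con 2, despite its choroid plexus genes, was the lowest hippocampus library for 15 genes, among them *Dcn*, *Ptgds*, *Aldh1a2* and *Slc6a13*. The summed FPKM of 15 choroid plexus genes was 1369 in Con 2, 2019 in IR 1 and 54.9 to 119 in the other hippocampus libraries, and 565 in cortex IR 2 and 57.9 to 87.4 in the other cortex libraries. Its median log2 fold change was 0.52 in the cortex (6 of 15 genes tested, all higher, none with an unadjusted p under 0.05) and 0.0079 in the hippocampus (10 tested, 5 higher and 5 lower, none at that level).

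Border macrophages live in the same membranes, and their genes were listed at low FPKM. The 8 genes summed to 3.83 to 4.22 FPKM in cortex Con and 2.38 to 3.51 FPKM in cortex IR, and to 1.27 to 3.29 FPKM in hippocampus Con and 2.56 to 5.45 FPKM in hippocampus IR. The 3 tested genes (*Mrc1*, *Pf4* and *Cbr2*) all had a log2 fold change below 0 in cortex IR and above 0 in hippocampus IR. The other 5 were too low to test. Among them *Cd163* was lower in IR without overlap in both tissues, with means of 0.232 and 0.132 FPKM in cortex Con and IR and of 0.235 and 0.140 FPKM in hippocampus Con and IR. The means of *Lyve1* and *Cd209f* were higher in cortex IR and lower in hippocampus IR, and those of *F13a1* and *Ms4a7* were lower in cortex IR and higher in hippocampus IR, without overlap for *F13a1* in the hippocampus (means 0.207 and 0.524 FPKM). *Mrc1*, the mannose receptor, was listed at 1.03, 0.811 and 0.970 FPKM in Con and 0.663, 0.720 and 0.598 FPKM in IR in the cortex and at 0.309, 0.173 and 0.603 FPKM in Con and 1.38, 1.01 and 0.695 FPKM in IR in the hippocampus. Con and IR did not overlap in either tissue, with a log2 fold change of -0.22 (SE 0.096, unadjusted p = 0.0442, adjusted p = 0.337 from limma) in the cortex and a log2 fold change of 0.57 (SE 0.16, unadjusted p = 0.00835, adjusted p = 0.262 from limma) in the hippocampus. *Cbr2* was lower in cortex IR too, with a log2 fold change of -0.28 (SE 0.10, unadjusted p = 0.0201, adjusted p = 0.263 from limma). *Pf4* was listed at 0 in hippocampus Con 1, as was *Ms4a7*, while *Cbr2* was listed at 0 in Con 2 and *Cd209f* in IR 3. The part of border macrophages and of the choroid plexus in the results of the fibroblast genes was not tested.

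Genes of the vessel wall were compared next. The counts at an unadjusted p under 0.05 in these lists and in the pathway lists stand beside 8.16% of all genes higher and 5.94% lower in cortex IR, and 7.06% higher and 6.89% lower in hippocampus IR. Of 12 endothelial genes, 8 were higher and 4 lower in cortex IR (5 higher with an unadjusted p under 0.05, none lower) and 9 were higher and 3 lower in hippocampus IR (2 higher at that level). Their sums were 122 to 141 FPKM in cortex Con, 139 to 161 FPKM in cortex IR, 104 to 118 FPKM in hippocampus Con and 123 to 129 FPKM in hippocampus IR. Of 10 mural cell genes, 4 were higher and 6 lower in both tissues, with a median log2 fold change of -0.0036 in the cortex and -0.0091 in the hippocampus. *Tagln* and *Notch3* were lower in hippocampus IR at an unadjusted p under 0.05. The 8 oligodendrocyte genes were all higher in cortex IR (3 with an unadjusted p under 0.05) and 6 of 8 were lower in hippocampus IR (2 at that level). Sums of the 8 genes were 1127 to 1396 FPKM in cortex Con and 1402 to 1697 FPKM in cortex IR, and 1162 to 1424 FPKM in hippocampus Con and 1073 to 1356 FPKM in hippocampus IR.

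Of 8 astrocyte genes, 3 were higher and 5 lower in cortex IR (*Gjb6* higher with an unadjusted p under 0.05), and 2 were higher and 6 lower in hippocampus IR (1 higher and 3 lower at that level). The 6 ependymal genes summed to 6.62 to 15.9 FPKM in cortex Con, 7.53 to 12.3 FPKM in cortex IR, 20.9 to 37.4 FPKM in hippocampus Con and 19.8 to 34.6 FPKM in hippocampus IR, none with an unadjusted p under 0.05. Red blood cell genes summed to 38.8 to 42.8 FPKM in cortex Con, 41.8 to 47.8 FPKM in cortex IR, 14.2 to 32.4 FPKM in hippocampus Con and 18.7 to 38.7 FPKM in hippocampus IR.

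**Figure D4:**
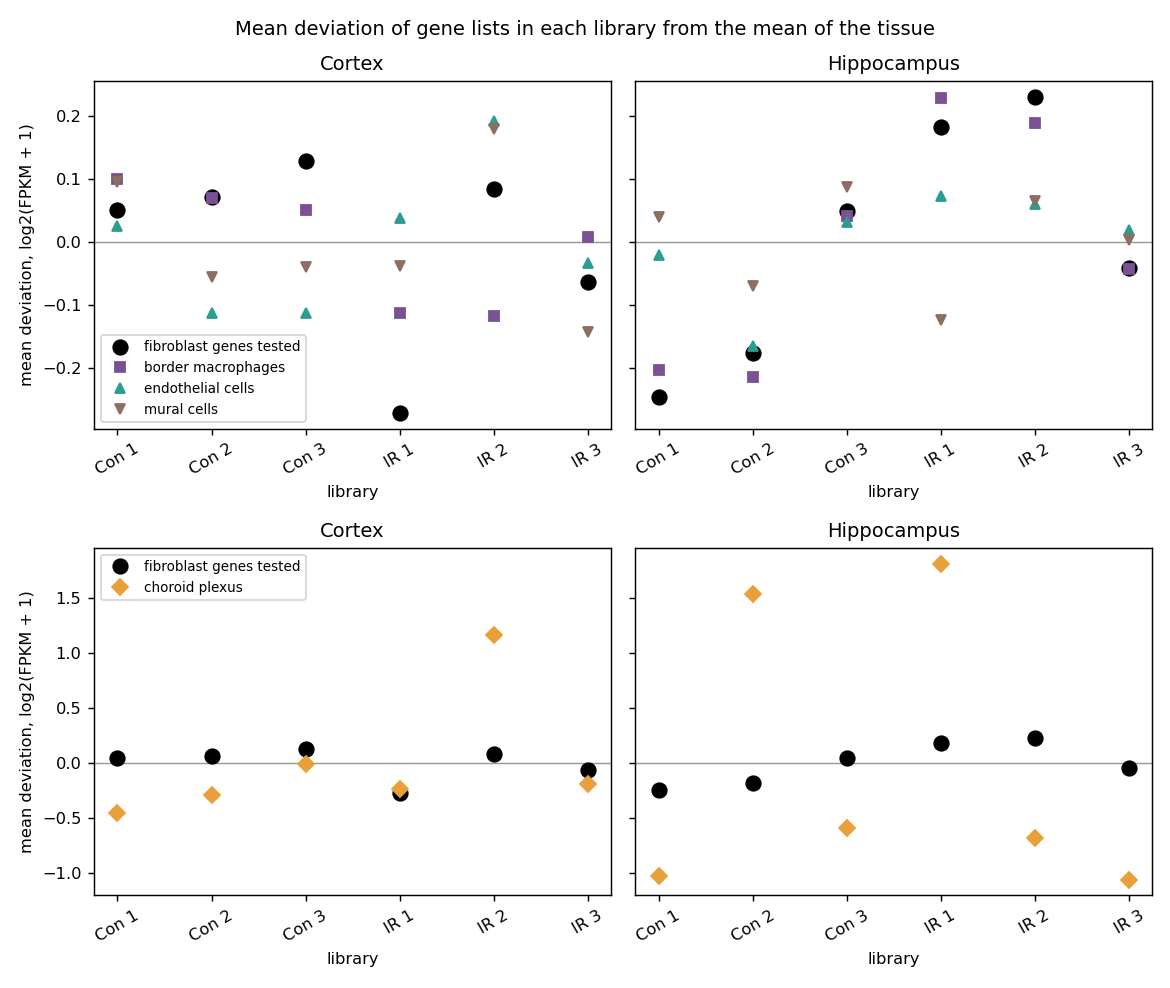
Mean deviation of each library from the mean of its tissue, in log2(FPKM + 1), for the fibroblast genes tested (black circles) beside border macrophage, endothelial and mural cell genes (top) and choroid plexus genes (bottom). In the hippocampus the fibroblast and border macrophage genes are both low in Con 1 and Con 2 and high in IR 1 and IR 2, and the choroid plexus genes are high in Con 2 and IR 1 alone. In cortex IR 2 the fibroblast and border macrophage genes part, at 0.084 and -0.12.

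Further genes of fibroblasts and their matrix showed no common direction in the cortex. Of 48 such genes, 41 were tested there, 17 higher and 24 lower in IR (median log2 fold change -0.025). *Col4a1*, *Col4a2* and *Col15a1*, for collagens of the basement membrane zone that endothelial and mural cells also make, were higher with an unadjusted p under 0.05, and *Fstl1* and *Ranbp3l* were lower. *Col4a2* was listed at 13.2, 13.7 and 11.9 FPKM in Con and 17.2, 16.5 and 16.5 FPKM in IR in the cortex, all IR libraries being above all Con libraries, with a log2 fold change of 0.35 (SE 0.064, unadjusted p = 0.000321, adjusted p = 0.0466 from limma). In the hippocampus 37 of the 48 were tested, 26 higher and 11 lower (median 0.09), and *Cemip*, a hyaluronan-degrading protein, was higher with an unadjusted p under 0.05.

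Pathways that the secreted factors and enzymes feed into were followed as well. Of 12 further retinoid genes, 11 were tested in each tissue, 6 higher and 5 lower in both, and *Stra6*, the retinol-binding protein receptor, alone had an unadjusted p under 0.05, in hippocampus (a log2 fold change of 0.32 (SE 0.097, unadjusted p = 0.0108, adjusted p = 0.278 from limma)). Of 20 further genes of the BMP pathway, 19 were tested in each tissue. In the cortex 11 were higher and 8 lower (*Smad7* and *Chrd* higher and *Bmp5* lower with an unadjusted p under 0.05), and in the hippocampus 8 were higher and 11 lower (*Chrd* higher, and *Smad7*, *Id4* and *Grem1* lower at that level). *Smad7*, an inhibitor that BMP and TGF-beta signals induce, was listed at 5.91, 6.13 and 5.82 FPKM in Con and 6.21, 7.15 and 7.27 FPKM in IR in the cortex and at 7.74, 7.74 and 7.37 FPKM in Con and 5.03, 5.62 and 6.33 FPKM in IR in the hippocampus. IR lay above Con without overlap in the cortex and below Con without overlap in the hippocampus, with a log2 fold change of 0.18 (SE 0.076, unadjusted p = 0.0431, adjusted p = 0.335 from limma) and a log2 fold change of -0.38 (SE 0.087, unadjusted p = 0.00247, adjusted p = 0.23 from limma).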

How the data were processed

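RNA-seq of 12 mouse brain libraries was used as deposited. The deposited values are FPKM that the authors made with TopHat, Cufflinks and a geometric normalization. The build named in the submitters' processing notes is mm10, and the annotation is not given in the sources used here. The paper's methods name an RNeasy Lipid kit and poly(A) selection, the labels Trizol and total RNA. No counts were used, so the depth in reads is unknown and no counting interval is given.

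Libraries were grouped by their labels. Genes of at least 0.5 FPKM in at least 3 of 6 libraries (3 of 12 for fits over all libraries) were fitted as log2(FPKM + 1) with limma 3.58.1 in R 4.3.3, with variance trend and robust prior. The fit was tested on simulated data. The 34 genes and the other lists were chosen with earlier results of these data known. Library values are given for every gene with an unadjusted p under 0.05 in either tissue or in the interaction, without overlap of the groups, or among the 5 with the largest fold change or range in a tissue, and other genes by their range. Genes outside the group could be named where they had a fold of 1.5 with an unadjusted p under 0.05, led their list or were listed at 0, and not all such genes are named. The others named were chosen after their values were seen. Alternatives were no filter, a pseudocount of 0.1, quantile normalization, limma without trend or robust prior, a replicate block, a fold taken from the ratio of group means, a single fit of 12 libraries, and leaving out each library. Figures were drawn with matplotlib 3.10.9.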

Additional observations from a re-analysis of the deposited data

Results flagged for a closer look

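*Islr* and *Foxc1* were flagged because every IR library lay below every Con library in the cortex and above every Con library in the hippocampus. Of all genes tested, 9.09% were lower in IR without overlap in the cortex and 10.5% higher in the hippocampus. The share that did both was not counted, so how rare this pattern is cannot be said here. The log2 fold change in the hippocampus exceeded that in the cortex by 0.67 for *Islr* (unadjusted p = 0.000173, adjusted p = 0.105, interaction in limma) and by 0.42 for *Foxc1* (unadjusted p = 0.00776, adjusted p = 0.342, interaction in limma). Neither difference passed the adjustment over all genes.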

How the results depend on the processing

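None of the alternatives reversed the sign of a median, but single genes with small fold changes turned. Leaving out each library in turn gave cortex log2 fold changes of -0.0699 to 0.018 for *Col3a1*, -0.033 to 0.12 for *Col6a1*, -0.20 to 0.043 for *Bgn*, -0.14 to 0.14 for *Lum*, -0.21 to 0.041 for *Ogn*, -0.10 to 0.16 for *Pcolce*, -0.018 to 0.15 for *Fbln1*, -0.21 to 0.12 for *Slc6a13*, -0.17 to 0.12 for *Serping1*, -0.087 to 0.044 for *Cyp1b1* and -0.021 to 0.12 for *Foxd1*. In the hippocampus they were -0.30 to 0.19 for *Col6a1*, -0.12 to 0.40 for *Pcolce*, -0.28 to 0.56 for *Slc13a4*, -0.40 to 0.45 for *Igf2*, -0.51 to 0.39 for *Igfbp2* and -0.17 to 0.28 for *Crabp2*. Quantile normalization turned *Lum* (8.28e-05) and *Cyp1b1* (0.015) in the cortex, and leaving out Con 2 and IR 1 turned *Lum* (-4.9e-05) and *Igf2* (-0.034) in the hippocampus. With all 12 libraries in a single fit, 1 fibroblast gene (*Islr*) in the cortex and 10 in the hippocampus had an unadjusted p under 0.05, in place of 8 and 6. In that fit 4.69% of all genes were lower and 6.81% higher in the cortex, and 9.68% lower and 8.95% higher in the hippocampus, where *Bmp6* was the lower gene of the 10. With a fold taken from the ratio of group means, 1 cortex gene (*Slc47a1*) met both thresholds in place of 0. Leaving out each library in turn gave an unadjusted p under 0.05 for 4 to 15 genes of the cortex and 3 to 17 of the hippocampus, 1 to 6 in the hippocampus with a fold of 1.5 as well, and 5 to 19 for the interaction. The cortex median was then -0.24 to -0.066. Without hippocampus Con 2 and IR 1, chosen after seeing the data, 1 gene met both thresholds there in place of 2. The cause of these shifts was not tested. No filter, a pseudocount of 0.1, quantile normalization and limma without trend or robust prior left the counts at an unadjusted p under 0.05 within 1.5 times their value, while quantile normalization gave 1 cortex gene (*Mgp*) an adjusted p under 0.05 in place of 0.

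Libraries of Con and IR with the same number did not deviate together (r across genes between -0.393 and 0.108). For cortex and hippocampus libraries of the same group and number, r was between -0.131 and 0.152. The numbers were not taken as pairs in either case. With a replicate block, 10 cortex genes (all lower, beside 5.77% of all genes), 5 hippocampus genes (all higher, beside 5.19%) and the interaction of 11 genes (all higher in the hippocampus, beside 4.93%) had an unadjusted p under 0.05. Depth in reads is unknown, so the number of fragments behind low genes such as *Slc47a1* and *Col3a1* is not known.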
